A study of Mus musculus with 8 samples.

Results

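Major urinary proteins are small barrel-shaped carriers of the lipocalin family that mouse hepatocytes secrete into the blood and that pass through the kidney into urine. There they bind and slowly release volatile pheromones, and the mixture of family members marks an individual male. Their genes lie side by side in a large cluster of near-identical paralogues on chromosome 4, and in the liver their transcription is known to rise with androgen, pulsatile growth hormone, glucocorticoid and thyroid hormone. The 8 genes described here are Mup1, Mup2, Mup3, Mup4, Mup5, Mup7, Mup20 and Mup21. They were selected by name, as every non-control probe on the array that carries one of these gene symbols. That rule gave 9 probes out of 55681, for 7 of the 8 genes and of 34836 gene names on the array: 1 probe each for Mup1, Mup2, Mup3, Mup5 and Mup21, and 2 each for Mup4 and Mup20. No probe carried the symbol Mup7.

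The data are 1-colour Agilent expression arrays of total RNA from the liver of 8 male mice aged 6 weeks that were fed a high-fat diet with 45% fat. Of these, 4 were NZO/HiBomDife mice (New Zealand Obese, an inbred strain that becomes obese and diabetic) and 4 were C57BL/6 mice (B6, the lean reference strain), with 1 array per mouse and no other diet or age. A strain comparison of this kind contains every genetic difference between both strains. The livers are whole tissue, so fewer cells of a type and less RNA per cell cannot be told apart. All 5 hepatocyte markers examined (Alb, Ttr, Apoa1, Cps1 and Tat) were above background on the 8 arrays, and none differed between the strains past the thresholds used here. Levels are given as the processed signal on the log2 scale minus that array's 75th percentile, so that 1 unit is a doubling and 0 is the level that 75% of the spots stay below. On the linear scale that percentile was 118.6 to 141.8 intensity units in NZO and 136.6 to 158.9 in B6.

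The arrays were not evenly spread over slides. Slide 1 held NZO mouse 003 with B6 mice 010 and 015 and was the only one with both strains. Slide 2 held NZO mice 009 and 011, and NZO mouse 007, B6 mouse 009 and B6 mouse 011 each lay on a slide of their own. Slides 1 and 2 were scanned on one day and the other 3 slides on another. Results that turn on the slide are given with their value on slide 1 alone.

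The probes are 60 bases long, and their sequences show which parts of the transcripts were measured. All 9 lie on the minus strand of chromosome 4 in mm9, the build named in the file headers. The upstream Mup20 probe (chr4:61713671-61713730), the upstream Mup4 probe (chr4:59973383-59973442) and the Mup1 probe (chr4:60512590-60512649) are printed because the comparisons below rest on them. The Mup5 probe (chr4:61496097-61496156) is printed because it opens with an ATG, in capitals, and so reads the start of the coding sequence.
Mup20 upstream probe: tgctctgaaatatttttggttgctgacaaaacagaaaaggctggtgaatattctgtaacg
Mup4 upstream probe: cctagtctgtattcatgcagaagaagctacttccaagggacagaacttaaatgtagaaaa
Mup1 probe: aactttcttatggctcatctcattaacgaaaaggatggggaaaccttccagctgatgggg
Mup5 probe: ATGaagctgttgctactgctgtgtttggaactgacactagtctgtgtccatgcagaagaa

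The downstream probes of Mup20 (chr4:61711407-61711466) and Mup4 (chr4:59969824-59969883) lie 2264 and 3559 bases further along the transcribed strand than the upstream ones. They read the same stretch of their transcripts, and the Mup19 probe (chr4:61439496-61439555) reads it too. Over the 52 bases that the Mup4 and Mup20 downstream probes share, 45 were identical, and the Mup20 and Mup19 probes shared 43 of 60. A window of 30 bases is printed to show how close these paralogues are, with capitals where a line differs from the Mup20 line.
Mup20 downstream probe: aagttctgtgatctgctttccatcgtgtct
Mup4 downstream probe: aagttctgtgatctgctttccatcCtgtct
Mup19 probe: aaAttctgtgatctgcAttccatcCtgtct

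The Mup3 probe (chr4:61745794-61745853) aligns without a gap to the probe named Mup6 and to a probe with only a transcript cluster name, TC1781567. It differed from them at 9 and 8 of 60 bases, which are in capitals.
Mup3 probe: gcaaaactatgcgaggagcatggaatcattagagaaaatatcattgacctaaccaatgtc
Mup6 probe: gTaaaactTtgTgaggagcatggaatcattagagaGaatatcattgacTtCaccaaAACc
TC1781567 probe: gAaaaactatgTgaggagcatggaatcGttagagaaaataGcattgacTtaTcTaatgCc

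A named probe is therefore not always a measure of a single gene, and cross-hybridisation between paralogues limits every value below. By the accessions in the array files, at most 4 per probe, the Mup1 probe matches transcripts of 3 genes (Mup1, Mup2 and Mup19) and the Mup2 probe those of Mup1 and Mup2. For the probes of Mup3, Mup4, Mup5, Mup20 and Mup21, the RefSeq accessions among those listed (2 for Mup5, 1 for each of the others) belong to the gene of that name, and the other accessions were not matched to a gene. The array was designed on the mm9 assembly, which is of the B6 strain, and the NZO sequence at these positions was not analysed here.

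On each of the 8 arrays all 9 probes stood well above background, and none was saturated. Of the 9, 8 were among very bright spots at 8.06 to 11.05 log2 units above the 75th percentile, and the upstream Mup4 probe was dim. The Mup1 probe gave 239384 to 266251 linear intensity units before any scaling, on arrays whose brightest raw spot median was 250680 to 279102. Probes differ in how strongly they bind, so a level at one probe says nothing of the level at another.

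Between the strains, 1 of the 9 probes passed both thresholds (adjusted p of 0.05 or less, by limma with Benjamini-Hochberg adjustment over 27623 probes, and a log2 fold change of 0.7 or more), and it was lower in NZO. Over all probes tested, 9.62% passed in either direction, 4.36% higher and 5.27% lower in NZO. At the unadjusted p and the same fold change, the thresholds that the methods of the study name, it was again 1 of 9 against 12.2% of all probes. At an unadjusted p of 0.05 alone, 4 of 9 passed against a background of 27.8%. The strains did not overlap for 4 of the 9, against 22.0% of all probes. The median log2 fold change was -0.09 over the 9 probes and 0.02 over all probes. The share of members past both thresholds (11.1%) was thus near that of all probes. The shares at an unadjusted p alone and without overlap (44.4% each) were larger than the background, over 9 probes that share near-identical transcripts, and the fold threshold removed 3 of those 4 probes. With no scaling between arrays these 3 (Mup1, Mup2 and Mup5) differed by 0.03, 0.01 and 0.02. Of bright probes outside the family, Alb differed by 0.27 without overlap (0.04 with no scaling). Serpina1e differed by 0.22 and 0.24, Rbp4 by 0.05 and Apoa1 by 0.01.

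**Figure D1:**
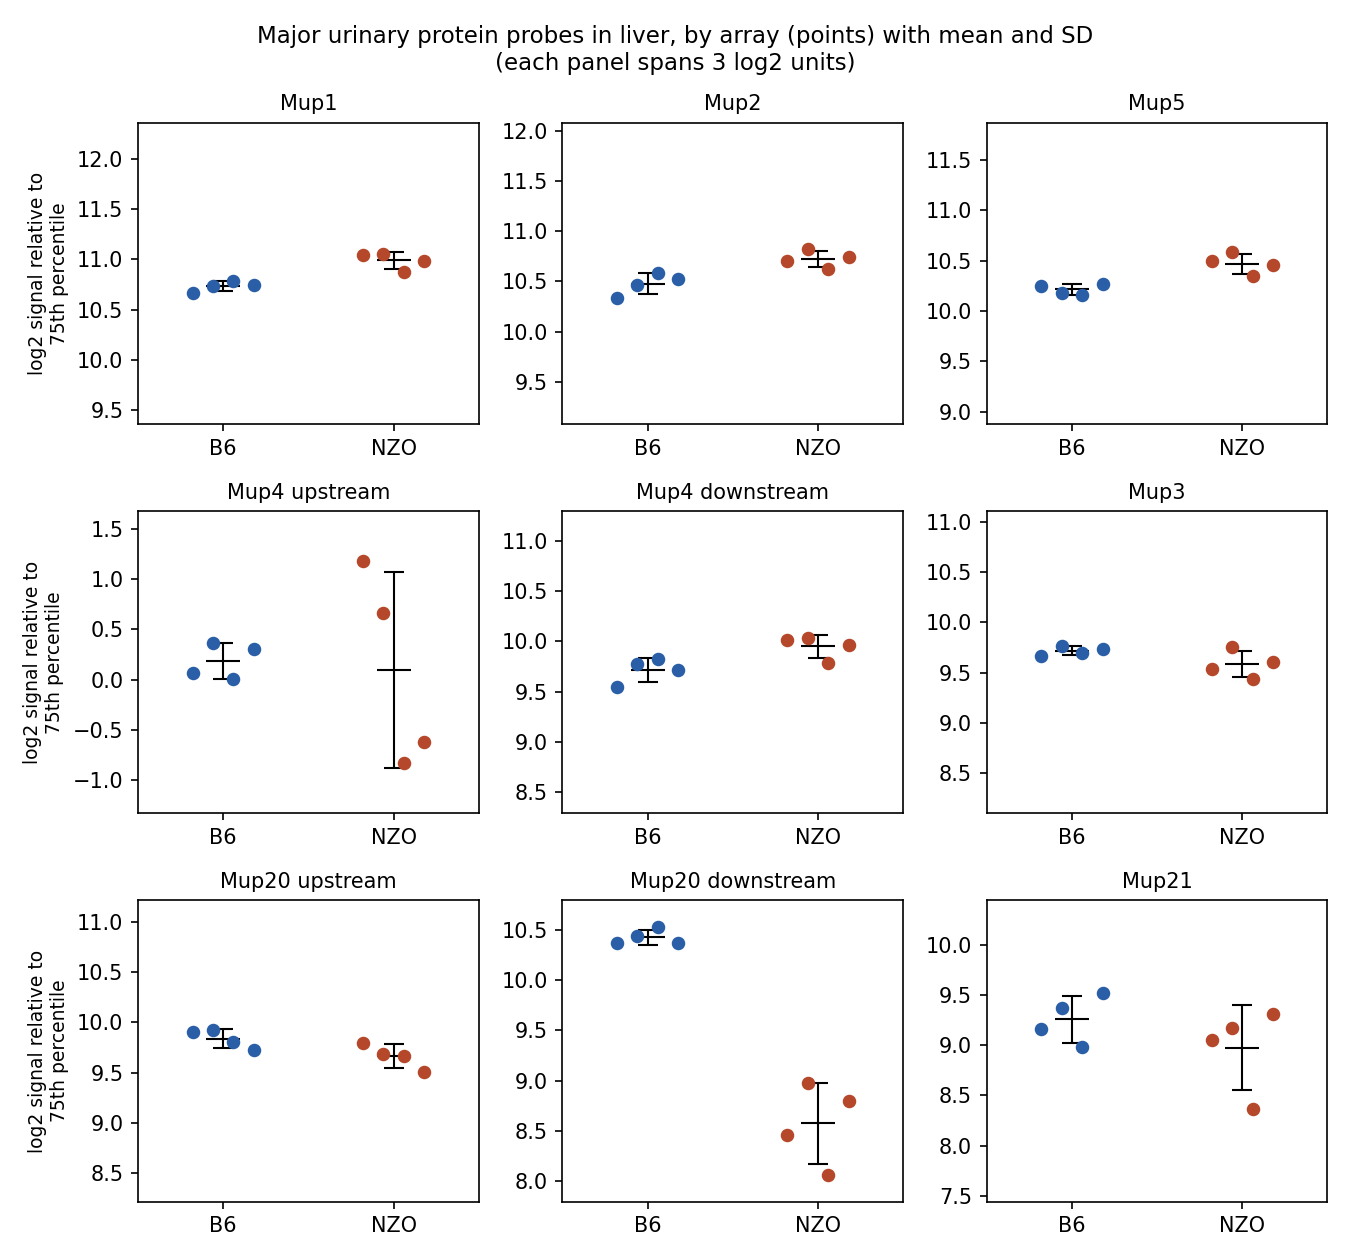
Level of each of the 9 probes (log2 units above the 75th percentile, vertical axis, 3 units in each panel) in the 4 B6 (blue) and 4 NZO (red) livers, 1 point per array, with mean and SD. The downstream Mup20 probe is at 10.37 to 10.53 in B6 and at 8.06 to 8.98 in NZO, while the upstream Mup20 probe overlaps between the strains.

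Mup20 encodes darcin, the atypical family member that female mice find attractive in male urine. Its downstream probe was at 8.46, 8.98, 8.06 and 8.80 in NZO mice 007, 003, 009 and 011, and at 10.37, 10.44, 10.53 and 10.37 in B6 mice 011, 010, 015 and 009. All 4 NZO livers were below all 4 B6 livers, and the B6 values lay within a much narrower span. The difference was -1.85 on the log2 scale (SE 0.19, 95% interval -2.29 to -1.41, adjusted p = 0.0004 in limma), which is 3.61-fold lower in NZO. On slide 1 alone it was -1.51 with an adjusted p of 0.056 in limma, from 1 NZO against 2 B6 arrays, so that its own test there assumes that the lone NZO liver varies as the B6 livers do. Within the scan days it was -1.87 on the first (3 NZO and 2 B6 arrays) and -1.91 on the second, which again holds 1 NZO against 2 B6 arrays. The call at this probe was lost with mouse number as a replicate block and with slide as a fixed term. The mouse numbers do not pair the samples, however. Slide as a fixed term repeats the slide 1 difference of -1.51, since only that slide held both strains.

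The upstream Mup20 probe gave another picture. It was at 9.79, 9.68, 9.67 and 9.50 in the NZO mice and at 9.90, 9.93, 9.80 and 9.72 in the B6 mice, in the order used for the downstream probe. The highest NZO liver lay among the B6 livers and the other 3 were below them. The difference was -0.18 (SE 0.10, 95% interval -0.41 to 0.06, adjusted p = 0.30 in limma), and the fold threshold of 0.7 lay outside that interval. With no scaling between arrays the difference of the upstream Mup20 probe was -0.41, and it was not called.

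Both Mup20 probes sit on the same array, so their difference within a liver does not depend on the scaling between arrays. Downstream minus upstream was -1.33, -0.71, -1.61 and -0.70 in the NZO livers and 0.47, 0.51, 0.72 and 0.65 in the B6 livers. Where 0 falls on this scale depends on how strongly each probe binds, so only the change between the strains was read. The strains differed by -1.67 in this quantity (two-sided exact permutation test, p = 0.029, n = 4 a strain), which is the smallest p that 4 against 4 arrays can give, and the test was chosen after the values had been seen. The strain difference thus depended on which Mup20 probe was read. The probes closest to the downstream Mup20 probe in sequence, those of Mup4 and Mup19 printed above, differed by 0.24 and 0.22, and neither passed the thresholds. With no scaling between arrays they differed by 0.01 and -0.01.

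**Figure D2:**
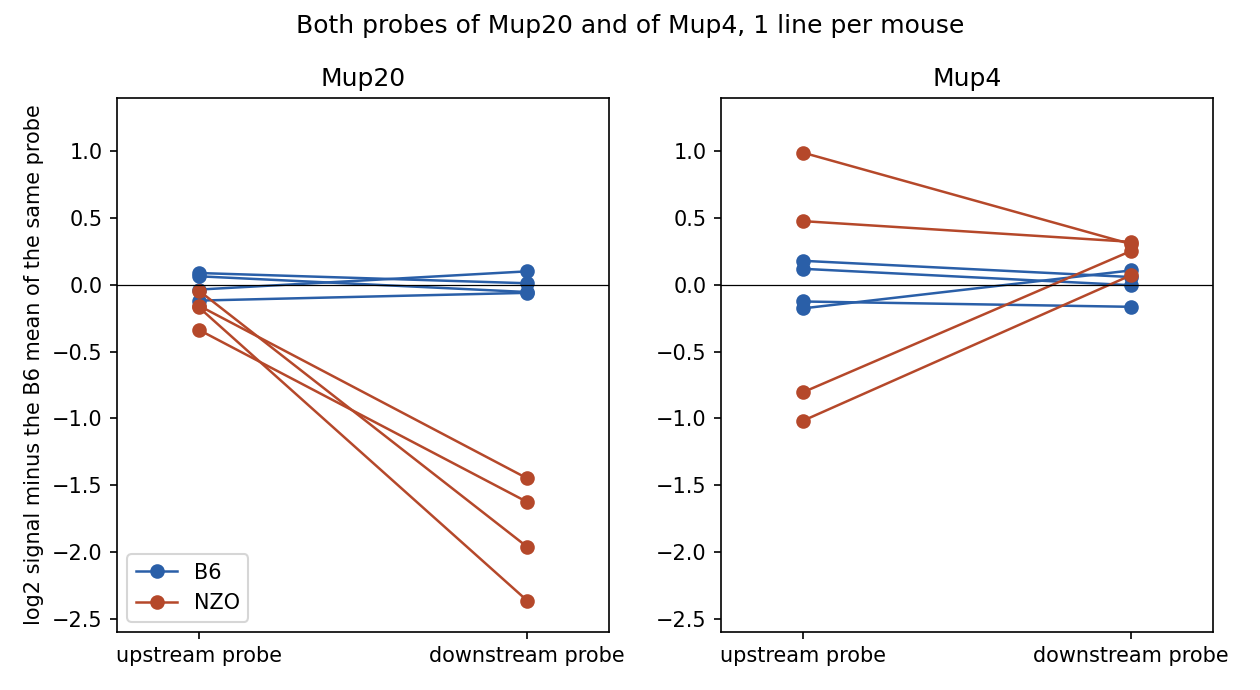
Both probes of Mup20 (left) and of Mup4 (right), each as log2 signal minus the B6 mean of the same probe (vertical axis), with 1 line per mouse in blue (B6) and red (NZO). For Mup20 the 4 NZO lines drop from the upstream to the downstream probe, and for Mup4 the NZO lines are spread at the upstream probe only.

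Mup1 and Mup2 belong to the closely related central group of the cluster that makes up most urinary protein. The Mup1 probe was at 11.05, 11.05, 10.87 and 10.99 in NZO mice 007, 003, 009 and 011, and at 10.67, 10.74, 10.79 and 10.74 in B6 mice 011, 010, 015 and 009. Every NZO value was above every B6 value by a small margin. The difference of 0.26 (SE 0.09, 95% interval 0.06 to 0.46) had an adjusted p of 0.094 in limma and was far under the fold threshold. It turned to -0.05 under quantile normalization and was 0.03 with no scaling between arrays, so the direction of the Mup1 probe was not settled.

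The Mup2 probe ranged from 10.62 to 10.82 in NZO and from 10.34 to 10.58 in B6, again with no overlap. Its difference was 0.25 (SE 0.10, 95% interval 0.03 to 0.47, adjusted p = 0.14 in limma). The Mup5 probe was at 10.35 to 10.59 in NZO and at 10.16 to 10.27 in B6. Its difference was 0.26 (SE 0.09, 95% interval 0.05 to 0.47, adjusted p = 0.11 in limma). For both probes the strains separated but the differences failed the adjustment and the fold threshold, and with no scaling between arrays they came to 0.01 and 0.02. On slide 1 alone the Mup5 difference was 0.42.

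Mup4 encodes a carrier that is also made in glands of the head, and its probes behaved differently from each other. The downstream probe was at 9.79 to 10.03 in NZO and at 9.55 to 9.82 in B6, with an overlap, and differed by 0.24 (SE 0.10, 95% interval from just below 0 to 0.48, adjusted p = 0.18 in limma). Its difference was 0.11 under quantile normalization and 0.0064 with no scaling between arrays. The upstream probe was at 1.18 and 0.66 in NZO mice 007 and 003 and at -0.83 and -0.62 in NZO mice 009 and 011. In B6 mice 011, 010, 015 and 009 it was at 0.06, 0.37, 0.01 and 0.31. The NZO livers therefore lay on both sides of the B6 livers, with an SD of 0.98 in NZO and 0.18 in B6. The mean difference of -0.09 (SE 0.43, 95% interval -1.08 to 0.90, adjusted p = 0.92 in limma) was well inside that spread, and leaving out NZO mouse 009 or 011 turned it to 0.22 or 0.15. On slide 1 alone it was 0.48. Downstream minus upstream differed by 0.33 between the strains (two-sided exact permutation test, p = 0.43, n = 4 a strain).

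Mup3 is a member outside the central group, and its probe was at 9.44 to 9.75 in NZO and at 9.66 to 9.76 in B6. The difference was -0.13 (SE 0.10, 95% interval -0.36 to 0.09, adjusted p = 0.42 in limma), and on slide 1 alone it was 0.02. With no scaling between arrays the Mup3 difference was -0.37, and in the deposited table it was -0.34. The Mup21 probe was at 9.05, 9.17, 8.36 and 9.31 in NZO mice 007, 003, 009 and 011, and at 9.16, 9.37, 8.98 and 9.52 in B6 mice 011, 010, 015 and 009. NZO mouse 009 was the lowest of the 8 and the other 3 NZO livers lay among the B6 livers. The difference was -0.28 (SE 0.22, 95% interval -0.79 to 0.22, adjusted p = 0.45 in limma). For Mup21 it was -0.0064 on slide 1 alone and -0.52 with no scaling between arrays.

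**Figure D3:**
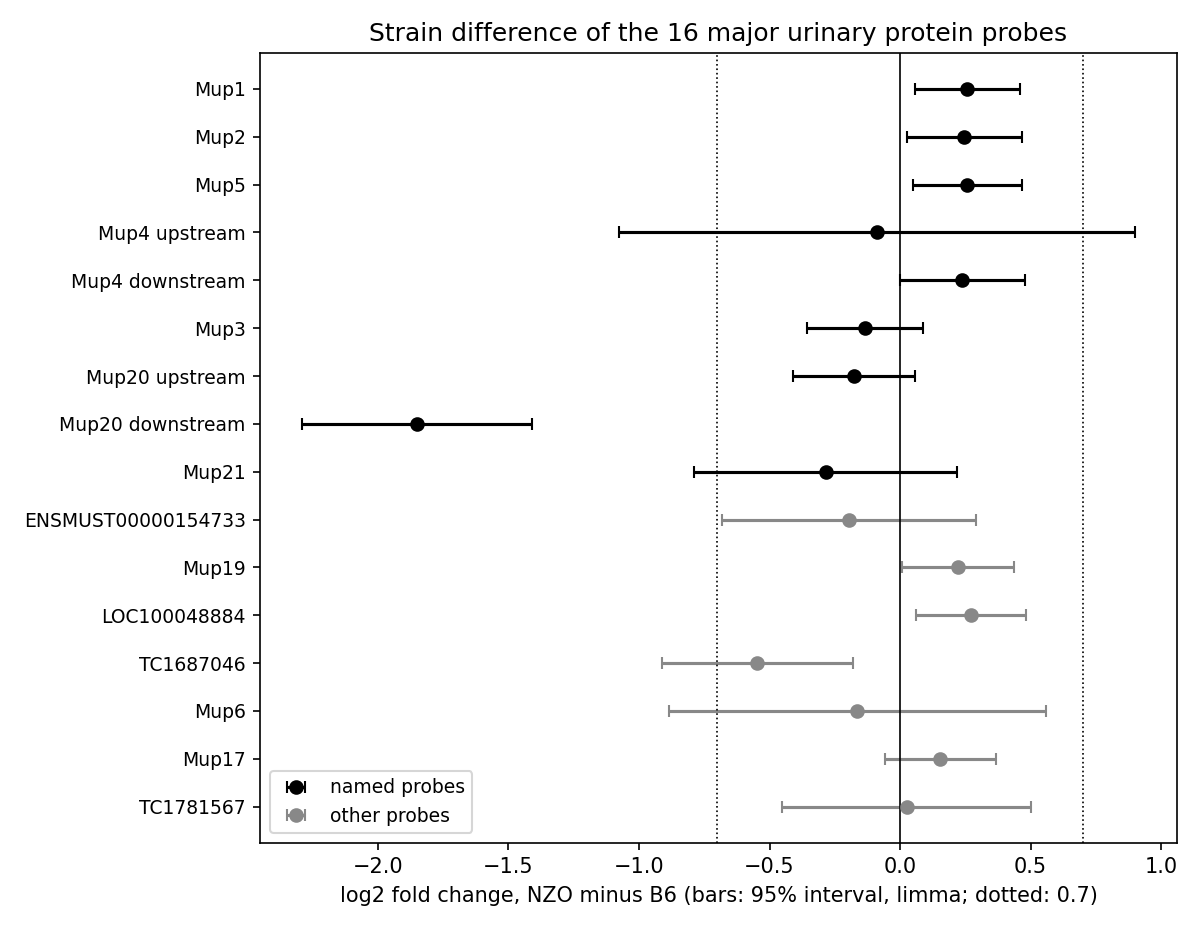
Log2 fold change of NZO minus B6 (horizontal axis, with 95% interval from limma) for the 9 named probes (black) and 7 other probes described as major urinary protein (grey). Dotted lines mark 0.7 in either direction, and the interval of the downstream Mup20 probe lies entirely below -0.7.

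A further 7 probes are described in the files as major urinary protein without being one of the 8 names, and none of them passed both thresholds. Of these, 3 carry other Mup names (Mup19, Mup17 and Mup6), 1 is listed as LOC100048884, which RefSeq now names Mup18, and 3 have only transcript names (TC1687046, TC1781567 and ENSMUST00000154733). The probes of Mup19 and LOC100048884 did not overlap between the strains and differed by 0.22 (adjusted p = 0.17 in limma) and 0.27 (adjusted p = 0.092 in limma), of which the Mup19 value turned to -0.02 under quantile normalization and -0.01 with no scaling. Probes of LOC100048884 and Mup17 share 35 identical bases. The Mup17 probe, which overlapped between the strains, differed by 0.15, or by -0.08 with no scaling and in the deposited table.

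The Mup6 probe lists transcripts of Mup4 and Mup6, and its NZO livers were spread over more than the B6 range (SD 0.69 against 0.18, n = 4 each), less widely than at the upstream Mup4 probe (SD 0.98 in NZO). It was at 4.37, 4.03, 2.99 and 3.05 in NZO mice 007, 003, 009 and 011 and at 3.64 to 4.04 in B6. Mice 009 and 011, the only arrays of slide 2, were below every B6 liver at both probes, and mouse 007 above every one. Mouse 003 was above the B6 livers at the upstream Mup4 probe but within their range at Mup6. With the mean of each strain subtracted, both probes correlated at r = 0.97 over the 8 arrays, given as a description, since arrays share scaling, slides and scan days. The corresponding r was 0.94 between the Mup1 and downstream Mup4 probes, 0.93 between the Mup2 and Mup19 probes, and -0.24 between both Mup20 probes. The ENSMUST00000154733 probe ran opposite to several others, with r of -0.94 with Mup2, -0.94 with Mup19, -0.91 with the downstream Mup4 probe and -0.78 with Mup1. The downstream Mup20 probe followed the Mup3 probe most closely (r = 0.89).

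Averaged over the 9 probes, the level was 8.92, 8.97, 8.48 and 8.75 in NZO mice 007, 003, 009 and 011 and at least 8.89 in all 4 B6 mice, so that NZO mouse 009 was the lowest. Outside the family, the genes whose probes followed this average most closely within the strains were Glipr1l3 (r = 0.975), Grcc10 (r = 0.973), 1700113H08Rik (r = 0.972), Sms (r = 0.971) and Kcna3 (r = 0.968). These are the top 5 of 19167 probes over 8 arrays and are given as a description. The average weighs the dim upstream Mup4 probe, with an SD of 0.98 in NZO, like the bright probes, whose SD in NZO was 0.08 to 0.42.

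Growth hormone acts on the liver through its receptor Ghr, the kinase Jak2 and the transcription factors Stat5a and Stat5b, and Mup genes are among its known targets. Of 20 probes for 10 genes of this pathway, 19 were tested, and 6 were higher and 0 lower in NZO, with a median log2 fold change of 0.83 over probes. That median is itself the value of an Igf1 probe, as genes with more probes weigh more. For this and the following lists, 9.62% of all tested probes passed in either direction. The higher probes belonged to 2 genes, 4 to Igf1, the main circulating growth factor under growth hormone control (differences of 0.83, 0.83, 1.19 and 1.34), and 2 to Prlr, the prolactin receptor (1.27 and 1.28). For the bright Igf1 probe the level was 7.61 to 7.84 in NZO and 6.72 to 7.08 in B6, with no overlap. Another tested Igf1 probe differed by 0.24 (adjusted p = 0.79 in limma) with overlapping strains. On slide 1 alone, with 1 NZO array, none of the 6 passed, at differences of 0.99 to 1.63 for Igf1 and 0.95 and 1.06 for Prlr. The receptor and signalling probes stayed under the fold threshold, at 0.14 and 0.31 for Ghr, -0.06 for Jak2, 0.27 for Stat5a, and -0.02 and 0.01 for Stat5b. Igfals (0.42), Bcl6 (-0.67) and Cish (1.12) were not called either, and at Cish the B6 livers spread from -0.96 to 4.31. Socs2, a feedback inhibitor of the pathway, differed by 2.50, 2.49 and 1.97 at its 3 tested probes with adjusted p of 0.061, 0.058 and 0.051 in limma, and the B6 livers spread from -1.48 to 2.30 at the first of these. The Socs2 differences were 4.09, 4.13 and 3.22 on slide 1 alone, which holds the 2 lowest B6 livers, and 1.54, 1.47 and 1.23 on the second scan day.

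Sex-biased liver genes are set, like the Mups, by the male or female rhythm of growth hormone release. Of 13 male-biased genes outside the family, 12 had probes. Of their 15 probes, 2 were higher in NZO, those of the arachidonate hydroxylases Cyp4a12a (1.30) and Cyp4a12b (1.32), and 1 was lower, that of the complement component C6 (-0.74). The C6 call was lost in 16 of 22 alternative settings. The other 12 probes, among them Hsd3b5 (0.09), Elovl3 (0.04), Slco1a1 (0.08) and Cyp2d9 (-0.19), did not pass, and the median over the list was 0.08. Also among those not called were Cyp7b1 (0.57) and both probes of Gstp1 (-0.35 and -0.38). Without B6 mouse 015 the differences of Hsd3b5, Elovl3 and Slco1a1 were 0.008, -0.21 and -0.02.

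Of the female-biased genes, 9 of 15 probes were bright enough to be tested, and 7 were higher and 2 lower in NZO. Of the 7, 5 were not well above background on any B6 array and so entered the test through NZO alone, which fixes their direction. Of those 5, Hao2, a peroxisomal hydroxyacid oxidase, was at least 35.5-fold higher in NZO and the cytochrome Cyp3a44 at least 54.0-fold higher, both against the lowest signal that stood above background. These bounds hold on the scale of the processed signal only: with normexp background correction the log2 differences were 2.46 for Hao2 and 3.10 for Cyp3a44, and they were 3.25 and 3.85 in the deposited table, all smaller than the bounds and all called. The other 2 higher probes were measured on all 8 arrays, and are named after their values had been seen: the cytochromes Cyp3a41b (5.51) and Cyp3a16 (2.85). The lower probes were both of Cyp2a4, a steroid hydroxylase, at -1.31 and -1.28. Their differences were as large or larger on slide 1 alone (-1.66 and -1.57) and within the scan days (-1.42 and -1.35 on the first, -1.38 and -1.38 on the second), where neither was called over the fewer arrays. Slide 1 and the first scan day both hold B6 mouse 015, the highest liver at both Cyp2a4 probes. Without that mouse the Cyp2a4 differences were -1.04 and -1.04, and each Cyp2a4 call was lost in 6 of 22 alternative settings. Probes of Cux2, Cyp2b13, Sult2a1 and Sult3a1 were not above background on all arrays of either strain.

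**Figure D4:**
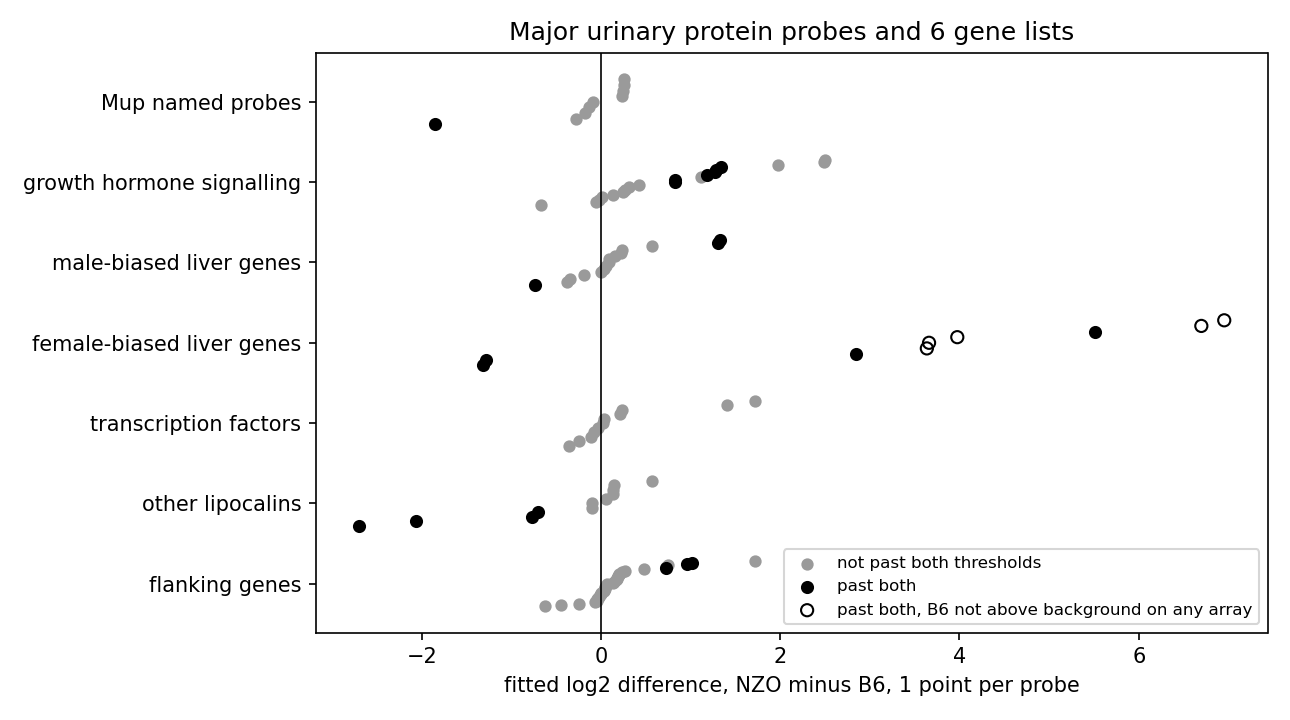
Fitted log2 difference of NZO minus B6 (horizontal axis) for the 9 named Mup probes and for the tested probes of 6 gene lists, 1 point per probe. Black points passed both thresholds, grey points did not, and open points passed but were not well above background in B6; 8 of the 9 Mup probes lie within 0.3 of 0.

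Of 8 transcription factors known to act on the Mup genes or on liver-specific expression, 11 probes were tested and 0 passed both thresholds in limma. At an unadjusted p of 0.05 alone it was 0 of 11 in limma and 1 of 11 with the per-probe test of the methods, which called 0 after adjustment. Hnf4a, the central hepatocyte factor, differed by 0.03 (95% interval -0.24 to 0.30). Cebpa and Cebpb, which drive liver-specific genes, differed by -0.24 and -0.36, and the glucocorticoid receptor Nr3c1 by -0.03 and 0.03. Without B6 mouse 015 the Cebpb difference was -0.12. The widest differences of the list were at Onecut1, a hepatocyte factor, at 1.72 and 1.41, where the B6 livers spread from -3.26 to 1.54 and from 2.09 to 6.19 and neither probe was called. They were 3.84 and 3.23 on slide 1 alone, and 0.56 and 0.45 on the second scan day. The probe of Zhx2, a repressor of several liver genes, was not above background on any array.

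Of 10 other lipocalins, 4 of 11 tested probes were lower and 0 higher in NZO. They were Lcn2 (-2.70), an iron-siderophore binder of the acute phase, and the acute-phase orosomucoids Orm3 (-2.07), Orm1 (-0.77) and Orm2 (-0.70). B6 mouse 015 stood above the other 3 B6 livers at all 4 probes, at 4.28 against 1.13 to 2.29 for Lcn2 and at 1.04 against -1.18 to -1.15 for Orm3. Without it the differences were -2.08 for Lcn2, -1.52 for Orm3, -0.56 for Orm1 and -0.51 for Orm2, and the last 2 were no longer called. Orm3 came to -0.88 with normexp background correction and to -1.46 in the deposited table, and on the second scan day Lcn2 was at -1.73 and Orm3 at -1.40. Each of these calls was lost in 10 to 16 of 22 alternative settings, among them slide 1 alone, where the differences over 1 NZO and 2 B6 arrays were -3.13, -2.64, -0.74 and -0.80 in the same order. The retinol carrier Rbp4 differed by 0.05, Apom by -0.10 and Ambp by 0.15, and the median over the list was -0.10.

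No protein-coding gene outside the family lies within the Mup cluster in the RefSeq gene table used, and 29 lie within 1 Mb on either side of it. Of their 34 tested probes, 3 were higher and 0 lower in NZO, where 4.36% of all tested probes were higher and 5.27% lower. These were Hdhd3 (1.01), Alad (0.96), an enzyme of haem synthesis, and Gng10 (0.72), a G protein subunit, of which Gng10 was lost in 10 of 22 alternative settings. On slide 1 alone, with 1 NZO array, none passed, at similar differences of 1.06, 1.11 and 0.76. A second tested Alad probe differed by 0.73 with overlapping strains (adjusted p = 0.27 in limma). Rgs3 (1.72, 0.75 and -0.24 at its tested probes) and Wdr31 (-0.45) were not called. The median of the flanking probes was 0.10.

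Markers of other cell types were examined because Mup genes are also active in glands and because blood and neighbouring tissue enter a liver sample. Of the salivary and lacrimal gland list, 4 of 9 probes were above background on no array, among them Prol1. The brightest probe of this list, that of Amy1, differed by 0.61 without overlap between the strains but below the fold threshold. Bhlha15 went the other way, at -1.91 without overlap, or -0.13 with normexp background correction. It was above background on 4 of 4 B6 but 2 of 4 NZO arrays and so entered the test through B6. Lpo differed by 0.44 without overlap, and 0 of the 3 tested probes of this list were called. The summed signal of a list follows its brightest probes and is compared here between livers, not between genes or lists. For the gland list it was 87.4 to 122 in NZO and 64.9 to 77.9 in B6, in multiples of the 75th percentile. Amy1 was at 6.00 to 6.92 over the 8 arrays and every other gland probe at -0.55 or less, so this sum is in effect Amy1 alone. Adipoq, Plin1 and Lep, which define adipocytes, were above background on no array, while the other 4 of 7 adipocyte probes (Cidec at 2 probes, Fabp4 and Car3) were above it on all. The summed signal of the list, with Car3 its brightest probe, was 565 to 644 in NZO and 409 to 481 in B6, without overlap, and no adipocyte probe was called. Car3 was at 8.66 to 9.32 over the 8 arrays and every other probe of the list at 2.21 or less. The sum is thus in effect Car3 alone and is not a measure of adipocytes. By probe, Car3 differed by 0.47 without overlap. The strains overlapped at Cidec (0.29 and 0.42) and at Fabp4, which differed by -0.30. Of the exocrine pancreas list, Cela3b, Pnlip, Cpa1 and Prss2 were above background on no array and Ctrb1 and Cela1 on all 8, with a summed signal of 1.36 to 2.29 in NZO and 1.29 to 1.75 in B6. Of the red blood cell markers, 2 of 4 probes were higher in NZO, Hba-a1 (1.01) and Alas2 (0.90), and the summed signal of their list, with Hba-a1 its brightest probe, was 293 to 470 in NZO and 155 to 208 in B6. Of 6 leukocyte probes, 5 were above background on all 8 arrays and differed by -0.51 to 0.41, with none called. The Itgax probe was above background on 4 of 4 B6 but 2 of 4 NZO arrays and so entered the test through B6, and its fitted difference of -2.04, which was called, came to -0.37 with normexp background correction and -0.49 on the second scan day. The summed leukocyte signal was 11.1 to 19.0 in NZO and 11.1 to 13.6 in B6, with Cd3e the brightest probe. Skeletal muscle markers, with Myh4 the brightest, summed to 18.8 in NZO mouse 007 and 6.18 in B6 mouse 010 and to 0.21 to 1.59 in the others. The part of these cell types in the Mup values was not tested. Without NZO mouse 007 the downstream Mup20 difference was -1.81, and without B6 mouse 010 it was -1.85.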

How the data were processed

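Per the file headers, the authors' scanner files were made with Agilent Feature Extraction 11.0.1.1 (the labels name 9.1), and the deposited columns hold spot intensity on a linear scale. The processed signal is background-subtracted within each array and not scaled across them. The deposited table of all 8 arrays, named as normalized, equals the raw median intensity for 55681 of 55681 probes on each array (within 0.01), so it served only as an alternative. Its scale is linear and it is not centred.

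From the processed signal, control spots and outlier spots were left out, spots of a probe were averaged, each array's 75th percentile was subtracted on the log2 scale, and each probe was kept separate. A probe was tested where 1 strain or both had it well above background on 4 of 4 arrays (27623 probes). NZO and B6 were compared with limma 3.58.1 in R 4.3.3, with Benjamini-Hochberg adjustment over all tested probes. A probe was called at an adjusted p of 0.05 or less and an absolute log2 fold change of 0.7 or more. The samples were grouped by the strain in the labels, and the labels give 1 sample per mouse. An "at least" fold was set against the lowest signal well above background on each array. Sequences and mm9 positions came from the array files, and 27656 probes were named through accessions in RefSeq's gene table (GRCm38.p6). The same table gave which genes neighbour the cluster, and none of its coordinates is printed.

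The methods' Welch test per probe is an alternative: at its unadjusted thresholds it called 1294 probes higher and 1602 lower in NZO, and after adjustment 834 and 886. The other alternatives were normexp background correction (offset of 50), quantile or no scaling, no filter, outlier spots kept, mouse number, slide or scan day in the model, single slides or days, and each mouse left out. The limma step was tested on simulated data drawn from these arrays: of 200 changed probes among 27615, 130 were called, all in the right direction, with 4 false calls. Changes of 1 log2 unit were recovered in 45% of cases and changes of 2 units in 85%.

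All 9 member probes were named. In each list every gene was counted and the probes past both thresholds were named, with the largest where more than 4 passed. One gene of the lists is not reported here. The members and lists were chosen with earlier results of these data known. The number of arrays limits the precision.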

Additional observations from a re-analysis of the deposited data

Results flagged for a closer look

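The probe TC1687046, described as a major urinary protein, was at 6.21 in NZO mouse 003, while the other 3 NZO livers were at 5.66 to 5.73. The gap was 0.873 of the range of the strain, above the 95% critical value of Dixon's test for 4 samples. This was 1 of 32 groups of 4 examined (16 probes in 2 strains), and chance alone puts about 1 in 20 groups past that value. The difference between the strains at this probe was -0.55 (adjusted p = 0.056 in limma), and it passed both thresholds with no scaling between arrays (-0.78) and in the deposited table (-0.75). On slide 1 alone, which holds NZO mouse 003 and 2 B6 mice, it was -0.0135.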

How the results depend on the processing

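The downstream Mup20 probe kept its direction in all 22 alternative settings, from -2.08 to -1.51, and its call in 19 of them, of which the second scan day holds 1 NZO array. It lost the call with mouse number as a replicate block (-1.94, adjusted p = 0.082 in limma), with slide as a fixed term (-1.51, adjusted p = 0.092) and on slide 1 alone (-1.51, adjusted p = 0.056), each with fewer residual degrees of freedom, and the count of member probes lower in NZO was then 0. With a mouse left out it ranged from -1.99 to -1.68 and was called each time. No member was called higher in NZO in any setting.

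Leaving out the scaling moved the median of all probes from 0.02 to -0.22 (-0.15 in the deposited table), and the small differences of the bright Mup probes moved with it. Values that changed sign were Mup1 at -0.052 and Mup19 at -0.022 under quantile normalization, and Mup19 at -0.011 and Mup17 at -0.078 with no scaling (Mup17 at -0.084 in the deposited table). Mup3 came to 0.019 with slide as a fixed term and on slide 1 alone. The upstream Mup4 probe came to 0.037 with slide as a random block, 0.48 with slide as a fixed term and on slide 1 alone, 0.065 with scan day in the model and 0.99 on the second scan day. With a mouse left out it ranged from -0.45 to 0.22 and was above 0 without NZO mouse 009 or 011. Mup6 came to 0.36 with slide as a fixed term and on slide 1 alone and to 0.49 on the second scan day, and ranged from -0.42 to 0.042 with a mouse left out, above 0 without the same 2 mice. ENSMUST00000154733 came to 0.046 on the first scan day and ranged from -0.33 to 0.00032 with a mouse left out. TC1781567 came to -0.043 with normexp, -0.097 with quantile normalization, -0.21 with no scaling and in the deposited table, -0.34 with the replicate block and -0.036 on the first scan day, and ranged from -0.13 to 0.13 with a mouse left out. The causes were not tested.

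Over all probes, calls (1203 higher, 1455 lower in NZO) were 618 and 580 with normexp, 770 and 2504 with no scaling, 72 and 134 with the replicate block, and 261 and 611 on slide 1 alone. They were 274 and 554 on the second scan day, 576 higher in the deposited table, 502 higher with slide as a fixed term, 797 lower on the first scan day and 886 lower with the methods' Welch test. Higher calls were thus 45% of the total in the main setting and 24% with no scaling.

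Over the 6 lists, 18 probes were higher and 7 lower. The counts were 5 and 0 with the replicate block, 10 and 0 on slide 1 alone, and 6 and 0 on the second scan day. The lower count was 0 with slide as a fixed term, on the first scan day and with the Welch test, 2 with no filter and 4 with slide as a random block. It was 2 to 6 with a mouse left out, with 2 without NZO mouse 003, 009 or 011 and 4 without NZO mouse 007 or B6 mouse 011 or 009. The mouse numbers 009 and 011 occur in both strains, but deviations of same-numbered livers correlated at -0.26 and -0.004, so the numbers do not pair the samples.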
